A study of Mus musculus with 10 samples.

Results

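The genes described here encode proteases that cut the extracellular matrix or work in the lysosome, and the inhibitors of those proteases. They were chosen by name: the matrix metalloproteinases (Mmp followed by a digit), the ADAMTS proteases (Adamts followed by a digit), the tissue inhibitors of metalloproteinases (Timp followed by a digit), the cathepsins (Cts followed by 1 letter), the Serpine inhibitors and urokinase, Plau. In the probe annotation 49 of 16475 measured genes fitted the rule and are described: 16 Mmp, 10 Adamts, 4 Timp and 18 cathepsin genes, and Plau. Another 2 Mmp rows were not analysed here, and no row carried a Serpine symbol. The RNA came from renal cortex after removal of glomeruli, taken from 5 diabetic mice labelled db/db and 5 non-diabetic littermates labelled db/m. All 10 mice were on the BKS background, were 24 weeks old and received no treatment, per the labels, and no label used here gives their sex. The db/db mice carry 2 mutant copies of the leptin receptor gene, so the model joins diabetes with obesity. Each mouse gave 1 Affymetrix array, and values are log2 levels, so that a difference of 1 is a 2-fold difference.

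Matrix metalloproteinases are zinc enzymes that are made as inactive precursors and together can cut collagens, laminins and proteoglycans, and the TIMPs block them by binding the active site. ADAMTS proteases are secreted zinc enzymes that cut proteoglycans or process collagen. Urokinase turns plasminogen into plasmin, which degrades fibrin and can activate metalloproteinases. Most cathepsins are lysosomal proteases; in the kidney the proximal tubule uses them to digest protein taken up from the filtrate, and macrophages use them on engulfed material and antigens.

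The genes of 8 of the Mmp members lie in a cluster on chromosome 9, in the order Mmp13, Mmp12, Mmp1b, Mmp3, Mmp1a, Mmp10, Mmp20 and Mmp7 in the RefSeq gene table. Only members were placed in this order, and other genes between them were not examined. Their upstream sequences are shown because this cluster held both the member that passed the test and the member that stood highest in a single mouse. The AP-1 site known from metalloproteinase promoters was searched as TGANTCA, with any base at N, which reads the same on both strands. This pattern was found in 8 of these 8 promoters, in the 250 bases before the gene start. The middle base was A in Mmp20, C in Mmp13 and G in the others, so Mmp20 matched only because any base was allowed. The match lay 35 bases before the start in Mmp13, 44 in Mmp12, 93 in Mmp1b, 46 in Mmp3, 73 in Mmp1a, 63 in Mmp10, 95 in Mmp20 and 63 in Mmp7. Each stretch below is from RefSeq, build GRCm38.p6, 5′ to 3′ on the gene's strand, with the match in capitals.
Mmp13, chr9:7272454-7272510, plus strand: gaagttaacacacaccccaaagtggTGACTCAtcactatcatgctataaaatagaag
Mmp12, chr9:7347305-7347361, plus strand: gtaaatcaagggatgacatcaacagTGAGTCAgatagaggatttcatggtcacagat
Mmp1b, chr9:7388088-7388144, minus strand: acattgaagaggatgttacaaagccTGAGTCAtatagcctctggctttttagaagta
Mmp3, chr9:7445751-7445807, plus strand: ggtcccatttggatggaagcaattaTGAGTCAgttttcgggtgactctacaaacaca
Mmp1a, chr9:7464043-7464099, plus strand: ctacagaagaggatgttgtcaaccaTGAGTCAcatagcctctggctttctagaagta
Mmp10, chr9:7502254-7502310, plus strand: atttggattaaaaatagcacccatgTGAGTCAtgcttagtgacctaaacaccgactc
Mmp20, chr9:7628111-7628167, plus strand: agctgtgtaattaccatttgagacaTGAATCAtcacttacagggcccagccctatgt
Mmp7, chr9:7692002-7692058, plus strand: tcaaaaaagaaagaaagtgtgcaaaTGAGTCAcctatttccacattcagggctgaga

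Of the 49 members 33 had an entry in the promoter table, which spans 250 bases before to 50 after each gene start. A gene was counted where any of its promoters matched. The AP-1 match occurred in 8 of these 33, all in the chromosome 9 cluster, and in 8.97% of all 27025 genes with a promoter of that length. The lysosomal CLEAR core TCACGTG, searched on both strands, occurred in 4.29% of these genes and in 2 of 14 cathepsin genes. They were Ctsa, a lysosomal carboxypeptidase gene, and Ctsd, the aspartic cathepsin gene. The printed matches run on to a palindrome, which matches on both strands and was counted as 1 site. Before the start Ctsa held 1 CLEAR match and Ctsd held 2, of which the one nearer the start is shown. A match is a description of the sequence and not a measured binding site.
Ctsa, chr2:164833735-164833772, plus strand: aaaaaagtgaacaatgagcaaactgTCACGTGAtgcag
Ctsd, chr7:142387894-142387951, minus strand: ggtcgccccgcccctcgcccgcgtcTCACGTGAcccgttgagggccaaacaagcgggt

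One array stood apart, and the results are given with and without it. Across genes, which are not independent replicates, Pearson's r between db/db 1 and the rest was 0.938 to 0.962, against at least 0.985 among the other 9. Proximal tubule markers averaged 12.57 in db/db 1 and 13.05 to 13.29 in the other 9 mice. The 10 macrophage markers, taken as the mean log2 level of the list, stood at 8.52 to 8.75 in db/m, 11.71 in db/db 1, 9.55 in db/db 2 and 7.71 to 8.21 in db/db 3 to 5. The 10 neutrophil markers stood at 5.66 to 6.19 in db/m, 10.5 in db/db 1, 8.19 in db/db 2, 7.47 in db/db 3, and 5.78 and 5.66 in db/db 4 and 5. Podocyte markers, at 8.58 to 8.76 in db/m and 8.92 to 9.34 in db/db, were not absent from the glomerulus-depleted cortex. With all arrays 5 of the 7 measured were higher in db/db (limma adjusted p under 0.05, list median 0.58), against 2.96% of all genes. The part of this difference in the members' values was not tested.

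With all 10 mice the members differed little between the groups as a whole. In the limma fit 1 of 49 members, Mmp13, passed an adjusted p of 0.05 and was lower in db/db, where 3.54% of all genes were lower. Of the 49 members 0 were higher by limma, against 2.96% of all genes, while 10 members had an unadjusted p under 0.05 in either direction, or 20.4% against 21.5% of all genes. The median log2 change was 0.11 over the members and -0.03 over all genes. The db/m and db/db mice did not overlap for 5 members: Ctsb, Ctsd and Ctsz were higher and Mmp13 and Timp3 lower in each of the db/db mice. That is 10.2% of the members and also 10.2% of all genes, of which 4.35% were higher and 5.85% lower.

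**Figure D1:**
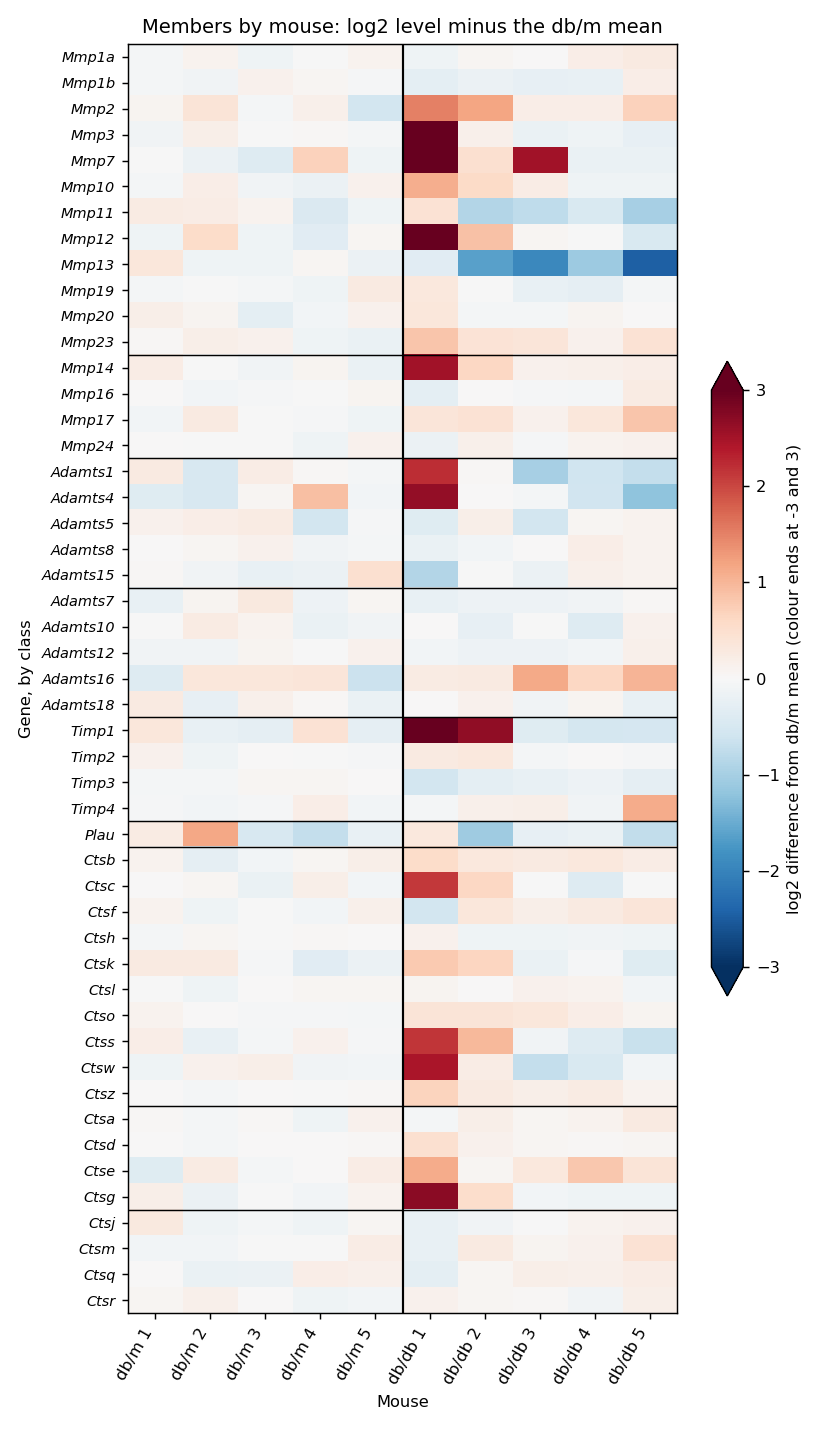
Heat map of the 49 members (rows, grouped by class) in the 10 mice (columns), coloured by the log2 level minus the db/m mean. The db/db 1 column holds the darkest red cells, among them Mmp7 at 7.74 and Timp1 at 6.51, and Mmp13 is blue in db/db 2 to 5.

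Mmp13, which encodes a collagenase, fell in the diabetic cortex. Its log2 levels in db/m mice 1 to 5 were 6.06, 5.57, 5.57, 5.78 and 5.54. In db/db mice 1 to 5 they were 5.37, 4.08, 3.78, 4.63 and 3.25. Each of the 5 db/db mice lay below each of the db/m mice, with db/db 1 nearest to them. The mean went from 5.71 ± 0.22 to 4.22 ± 0.81 (SD, n = 5 each), a 2.80-fold drop (log2 change -1.48 ± 0.34 (SE), limma adjusted p = 0.0311). Without db/db 1 the change was -1.77 ± 0.24 (adjusted p = 0.00185), and without db/db 1 and db/db 2 it was -1.82 ± 0.27 (adjusted p = 0.00472). Mmp13 was among the dimmest 25% of genes, and its adjusted p lay above 0.05 in 7 of the 10 fits that left out 1 mouse, reaching 0.0733 without db/m 1. The direction was lower in each of those fits. In tissue RNA, fewer cells of a type and less RNA per cell cannot be told apart, here and below.

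Mmp11, which encodes stromelysin-3, a secreted protease known from stromal cells, was lower in 4 of the 5 db/db mice. Its levels were 7.04, 7.02, 6.90, 6.35 and 6.65 in db/m mice 1 to 5 and 7.23, 5.90, 6.02, 6.33 and 5.80 in db/db mice 1 to 5. Mouse db/db 1 was the highest of all 10, and the other 4 db/db mice lay below each of the db/m mice. With all arrays the difference did not pass (log2 change -0.53 ± 0.26, 95% interval -1.12 to 0.05, limma adjusted p = 0.273). Mmp11 fell by limma without db/db 1 (-0.78 ± 0.16, adjusted p = 0.0122), and likewise in the fit of db/db 3 to 5 alone (-0.74 ± 0.18, adjusted p = 0.0307).

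The matrilysin gene Mmp7, whose product is made by injured epithelium and cuts many matrix and surface proteins, was far higher in a single mouse. Its levels in db/m mice 1 to 5 were 5.28, 5.12, 4.90, 5.98 and 5.16, and in db/db mice 1 to 5 they were 13.03, 5.78, 7.81, 5.08 and 5.10. Mouse db/db 1 stood 7.74 log2 units above the db/m mean, or 214-fold, and db/db 3 stood 2.52 above it, while db/db 2, 4 and 5 lay within the db/m range. The group difference was 2.07 ± 1.34 with an interval of -0.91 to 5.06 and did not pass (limma adjusted p = 0.413). The SD between mice was 0.41 in db/m and 3.36 in db/db. When db/db 1 was left out the group difference was 0.66 ± 0.51 (adjusted p = 0.476).

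Mmp12, Mmp3 and Mmp10, of the same chromosome 9 cluster, were also highest in db/db 1. Mmp12, the macrophage elastase gene, was at 6.14, 6.84, 6.14, 5.95 and 6.33 in db/m mice 1 to 5 and at 10.44, 7.16, 6.35, 6.27 and 5.82 in db/db mice 1 to 5. The stromelysin gene Mmp3 was at 5.25 to 5.52 in db/m, 8.37 in db/db 1 and 5.10 to 5.51 in the other db/db mice. Mmp10, another stromelysin gene, was at 4.6 to 4.98 in db/m, 5.87 in db/db 1, 5.36 in db/db 2 and 4.64 to 5.01 in db/db 3 to 5. Both Mmp3 and Mmp10 were among the dimmest 25% of genes. So db/db 1 exceeded each of the db/m mice for these genes, as did db/db 2 for Mmp12 and Mmp10. With all arrays the changes were 0.93 ± 0.76 for Mmp12 (limma adjusted p = 0.525), 0.52 ± 0.56 for Mmp3 (adjusted p = 0.642) and 0.33 ± 0.22 for Mmp10 (adjusted p = 0.425). After db/db 1 was left out those of Mmp12 and Mmp10 were 0.12 and 0.14, and that of Mmp3 was -0.11.

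The remaining members in the cluster, which were dim as Mmp13, Mmp3 and Mmp10 were, stayed near the db/m mean, in db/db 1 too. The collagenase genes Mmp1a and Mmp1b and the enamel protease gene Mmp20 lay within 0.33 log2 units of the db/m mean in db/db 1, with changes of 0.07, -0.15 and 0.05 that did not pass. So the 8 members in the cluster, which each hold the pattern TGANTCA before their start, had differences in db/db 1 from -0.34 for Mmp13 to 7.74 for Mmp7.

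**Figure D2:**
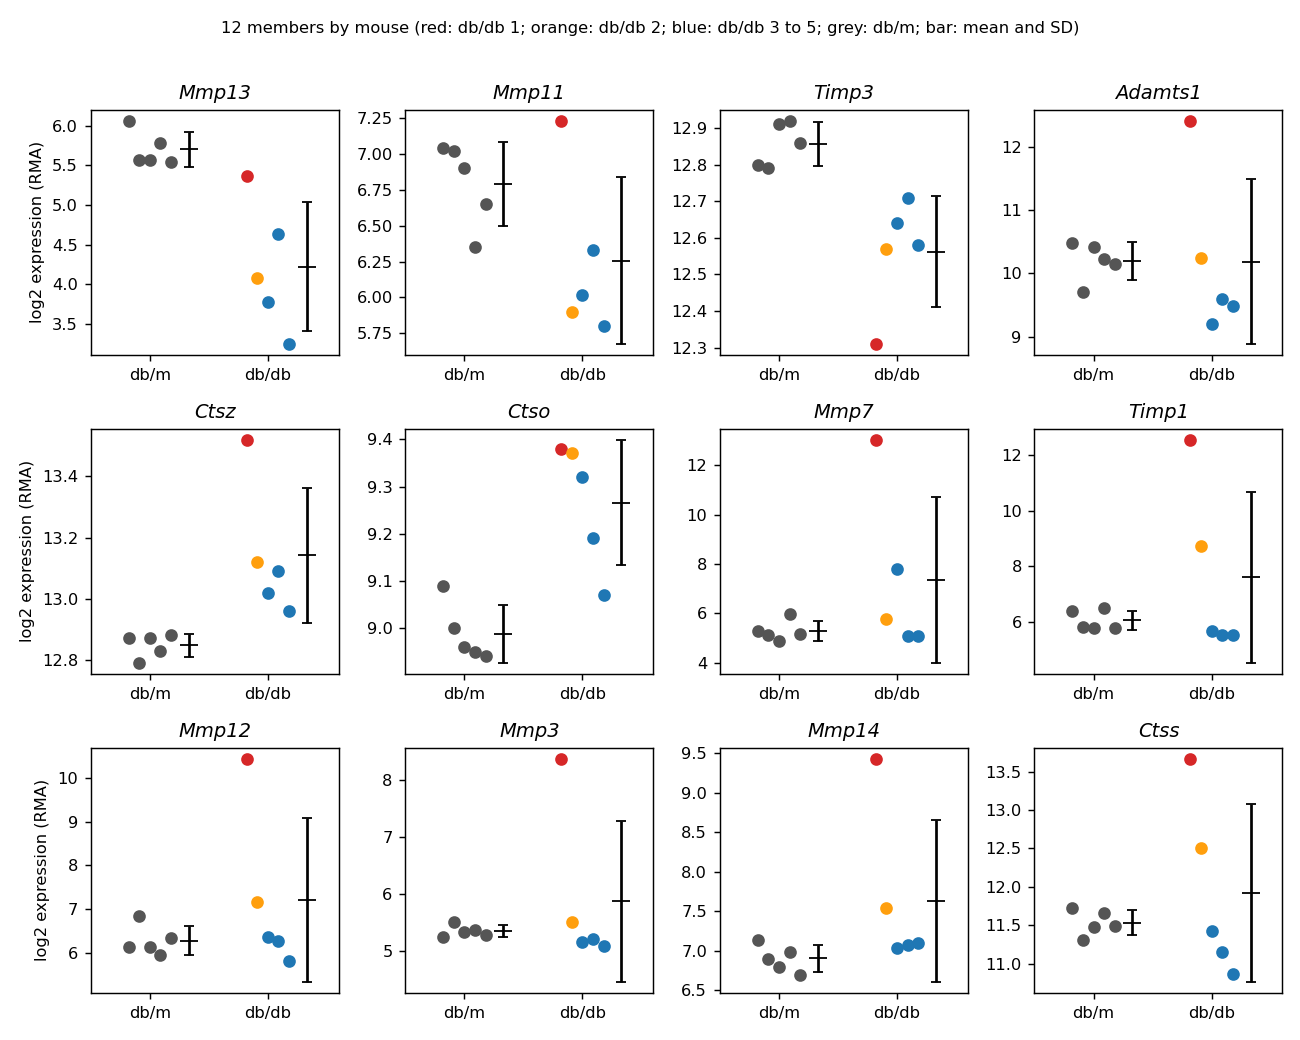
Log2 expression of 12 members in each mouse, with db/m on the left and db/db on the right of each panel. Bars give mean and SD (n = 5), and db/db 1 is red and db/db 2 orange. Mmp13 and Timp3 lie lower in each of the db/db mice, Mmp7, Mmp12, Mmp3 and Mmp14 are highest in db/db 1, and Timp1 and Ctss are high in db/db 1 and db/db 2 but not in db/db 3 to 5.

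Outside the cluster Mmp11 did not pass with all arrays, as given above, and the other metalloproteinase genes passed in none of the 3 fits. The gelatinase gene Mmp2 was at 6.94, 7.23, 6.80, 7.0 and 6.29 in db/m mice 1 to 5 and at 8.36, 8.03, 7.05, 7.06 and 7.55 in db/db mice 1 to 5. Only db/db 1, 2 and 5 exceeded the highest db/m mouse, and the difference did not pass (0.76 ± 0.28, interval 0.15 to 1.37, limma adjusted p = 0.14). Mmp14 encodes a membrane-anchored protease that activates the Mmp2 product, and it was at 7.14, 6.90, 6.80, 6.99 and 6.70 in db/m and at 9.43, 7.54, 7.03, 7.07 and 7.10 in db/db. Here db/db 1 and 2 were above the db/m range and the other 3 within it (0.73 ± 0.42, adjusted p = 0.348). Mmp17, another membrane-type gene, had the lowest adjusted p of its class (0.42 ± 0.13, adjusted p = 0.0866), and db/db 5 was its highest mouse at 7.73. Mmp23 was at 9.17 to 9.56 in db/m and 9.50 to 10.22 in db/db (0.43 ± 0.13, adjusted p = 0.0839). Mmp16, Mmp19 and Mmp24 changed by -0.04 to 0.04 and did not pass.

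None of the 4 TIMP genes passed with all arrays. Timp1, an inhibitor gene that is induced in inflamed and scarring tissue, was at 6.38, 5.82, 5.79, 6.49 and 5.78 in db/m mice 1 to 5. In db/db mice 1 to 5 it was at 12.56, 8.72, 5.68, 5.53 and 5.54. Mouse db/db 1 was 6.51 log2 units above the db/m mean, or 91.1-fold, and db/db 2 was 2.67 above it, or 6.37-fold, whereas db/db 3 to 5 lay below each of the db/m mice. The difference did not pass with all arrays (1.56 ± 1.23, interval -1.18 to 4.30, limma adjusted p = 0.514) or without db/db 1 (0.32 ± 0.61, adjusted p = 0.807). Without db/db 1 and db/db 2 its sign turned (-0.47 ± 0.18, adjusted p = 0.15).

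Timp3, whose product binds to the matrix and blocks metalloproteinases and ADAMTS proteases, was at 12.80, 12.79, 12.91, 12.92 and 12.86 in db/m mice 1 to 5. In db/db mice 1 to 5 it was at 12.31, 12.57, 12.64, 12.71 and 12.58, lower in 5 of 5 mice and lowest in db/db 1. The size was small, a 1.23-fold difference (-0.29 ± 0.08), and just missed the threshold (limma adjusted p = 0.0616). It passed without db/db 1 (-0.23 ± 0.06, adjusted p = 0.0334) but not without db/db 1 and db/db 2 (adjusted p = 0.0813). The other two inhibitors did not pass: Timp2, also needed to activate the Mmp2 product, changed by 0.10 ± 0.10 (interval -0.11 to 0.32), and the dim Timp4 by 0.25 ± 0.21 with db/db 5 highest at 5.93.

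Plau, the urokinase gene, varied widely within both groups. It was at 9.55, 10.47, 8.83, 8.60 and 9.09 in db/m mice 1 to 5 and at 9.62, 8.25, 9.06, 9.12 and 8.56 in db/db mice 1 to 5. The groups overlapped, db/m 2 was the highest mouse and db/db 2 the lowest. The change was -0.38 ± 0.36 (interval -1.20 to 0.43, limma adjusted p = 0.591).

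Of the 10 ADAMTS genes the proteoglycan-cutting members Adamts1 and Adamts4 were high in db/db 1. Adamts1 was at 10.48, 9.71, 10.42, 10.23 and 10.15 in db/m mice 1 to 5 and at 12.42, 10.24, 9.20, 9.60 and 9.48 in db/db mice 1 to 5. Mouse db/db 1 lay above and db/db 3 to 5 below each of the db/m mice, and the mean difference was -0.01 ± 0.53 (limma adjusted p = 0.993). Adamts1 fell without db/db 1 and db/db 2 (-0.77 ± 0.17, a 1.71-fold drop, adjusted p = 0.0241), and without db/db 1 alone the change was -0.57 ± 0.22 (adjusted p = 0.121). Adamts4 was at 6.14, 6.02, 6.57, 7.41 and 6.42 in db/m and at 9.15, 6.52, 6.44, 5.94 and 5.30 in db/db, so that db/db 1 stood out and db/db 4 and 5 were below the db/m range (0.16 ± 0.62, adjusted p = 0.91).

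The remaining ADAMTS genes did not pass in any of the 3 fits. Adamts16, which is dim here and is known from kidney development and blood pressure, was at 4.48 to 5.50 in db/m and at 5.37, 5.40, 6.26, 5.76 and 6.16 in db/db mice 1 to 5. Its change was 0.66 ± 0.26 (limma adjusted p = 0.167) with all arrays and 0.93 ± 0.26 (adjusted p = 0.052) without db/db 1 and db/db 2. Adamts15 had a change of -0.16 ± 0.21, and in db/db 1, at 9.25, it lay below each of the other mice. Adamts5, 7, 8, 10, 12 and 18 had changes of -0.13 to 0.00.

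Among the lysosomal cathepsins Ctsb, Ctsd and Ctsz stood above each of the db/m mice in all 5 db/db mice, by small amounts that did not pass with all arrays. Over the 10 cysteine cathepsin genes outside the placental group the median log2 change was 0.28, 0.05 without db/db 1 and -0.03 without db/db 1 and 2, against -0.03, -0.01 and 0.00 over all genes, and with all arrays their lowest limma adjusted p was 0.0603. Ctsz, a carboxypeptidase gene, was at 12.87, 12.79, 12.87, 12.83 and 12.88 in db/m mice 1 to 5 and at 13.52, 13.12, 13.02, 13.09 and 12.96 in db/db mice 1 to 5. All 5 db/db mice exceeded each of the db/m mice, db/db 1 by most, and the difference was 0.29 ± 0.10 (adjusted p = 0.121). Ctsz rose without db/db 1 (0.20 ± 0.06, a 1.15-fold change, adjusted p = 0.0483) and did not pass without db/db 1 and db/db 2 (adjusted p = 0.115).

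Ctsb and Ctsd, the genes of a cysteine and an aspartic lysosomal cathepsin, had the same separation, Ctsd by less than the second decimal shows. Ctsb was at 11.15 to 11.59 in db/m and 11.64 to 11.98 in db/db (0.34 ± 0.10, limma adjusted p = 0.0751), and Ctsd at 13.07 to 13.18 and 13.18 to 13.61 (0.16 ± 0.09, adjusted p = 0.339). Ctso, a widely expressed cysteine cathepsin gene, was at 9.09, 9.0, 8.96, 8.95 and 8.94 in db/m and at 9.38, 9.37, 9.32, 9.19 and 9.07 in db/db, with 4 of 5 db/db mice above the db/m range (0.28 ± 0.08, adjusted p = 0.0603). Ctsf stood the other way in db/db 1. It was at 10.93 to 11.21 in db/m, 10.51 in db/db 1 and 11.23 to 11.42 in the other 4 db/db mice, and it rose only in the fit without db/db 1 among the 3 fits (0.29 ± 0.08, adjusted p = 0.0402). Ctsl and Ctsh, at 13.49 to 13.68 and 12.61 to 12.74 in db/m, changed by 0.05 ± 0.07 and -0.07 ± 0.07, and Ctsa by 0.11 ± 0.08.

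Cathepsins known from immune cells differed most between the db/db mice themselves. Ctss, a macrophage protease gene of antigen presentation, was at 11.73, 11.31, 11.47, 11.66 and 11.49 in db/m mice 1 to 5 and at 13.67, 12.51, 11.42, 11.15 and 10.86 in db/db mice 1 to 5. Mice db/db 1 and 2 were above the db/m range and db/db 4 and 5 below it, and the group change was 0.39 ± 0.47 (limma adjusted p = 0.676). Ctsc, whose product activates granule proteases, had a db/m mean of 9.82 ± 0.14 (SD, n = 5) and was at 11.93, 10.44, 9.81, 9.43 and 9.80 in db/db mice 1 to 5. The dim neutrophil granule gene Ctsg was at 4.36 to 4.72 in db/m, 7.25 in db/db 1, 5.06 in db/db 2 and 4.40 to 4.45 in the others. Ctsw, known from cytotoxic lymphocytes, was at 7.05 to 7.35 in db/m and at 9.63, 7.40, 6.46, 6.72 and 7.09 in db/db. For these 4 genes db/db 1 was 2.11 to 2.71 log2 units above the db/m mean. Their changes with all arrays had adjusted p of 0.546 to 0.793.

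The bone collagen protease gene Ctsk was at 6.38 to 6.99 in db/m. It stood above that range at 7.49 in db/db 1 and at 7.35 in db/db 2, and lay between 6.35 and 6.68 in db/db 3 to 5. The aspartic cathepsin gene Ctse, which is dim, was at 4.26 to 4.87 in db/m and 4.69 to 5.75 in db/db (0.53 ± 0.20, limma adjusted p = 0.155). The placental cathepsin genes Ctsj, Ctsm, Ctsq and Ctsr were dim in all groups and changed by -0.03 to 0.13. They are close relatives, so that their probes need not tell them apart.

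Seen by mouse, many members stood high in db/db 1. There 27 of 49 members, or 55.1%, exceeded each of the db/m mice, against 25.1% of all genes, and 13 members lay below each of them, against 49.4% of all genes. Members that exceeded the db/m mean more than 4-fold numbered 11 of 49, or 22.4%, against 4.53% of all genes: Mmp7, Timp1, Mmp12, Mmp3, Ctsg, Adamts4, Mmp14, Ctsw, Adamts1, Ctss and Ctsc. At the lower limit of 2-fold 14 members were above it, against 9.83% of all genes. No member was more than 2-fold or 4-fold below it, against 4.60% and 0.680% of all genes. Single mice have no replicate, so these shares describe db/db 1 and carry no test.

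In db/db 2 the differences were smaller. There 21 of 49 members, or 42.9%, exceeded each of the db/m mice, against 23.6% of all genes, and 17 of them did so in db/db 1 as well, against 13.5% of all genes for both mice. In db/db 2 only Timp1 exceeded the db/m mean more than 4-fold, 1 of 49 members, against 0.492% of all genes. At 2-fold there were 2 above, Timp1 and Mmp2, against 2.81%, and 2 below, Mmp13 and Plau, against 1.10%. Mmp2 at 1.18 and Ctss at 0.98 log2 units above the db/m mean came next, and Mmp13 at -1.63, Plau at -1.05 and Mmp11 at -0.89 were the lowest. Mmp7, Mmp3, Adamts1 and Adamts4, which were 2.22 to 7.74 log2 units up in db/db 1, were at 0.00 to 0.49 in db/db 2.

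**Figure D3:**
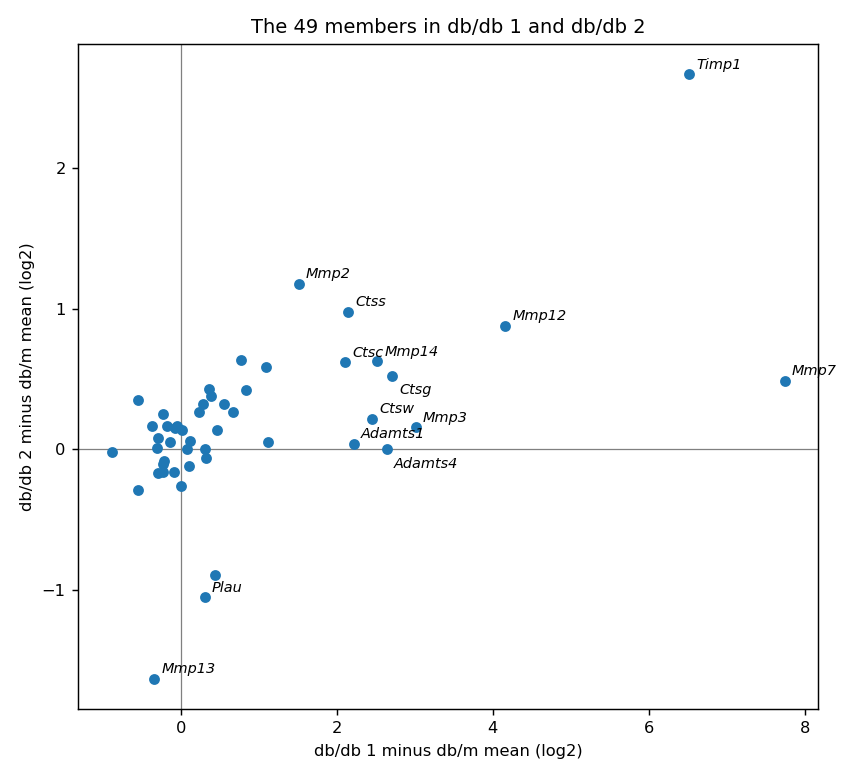
Log2 level minus the db/m mean of the 49 members in db/db 1 (horizontal) and db/db 2 (vertical), with names for members beyond 2 in db/db 1 or beyond 1 in db/db 2. Timp1 is high in both, Mmp7 is far out in db/db 1 alone, and Mmp13 is the lowest in db/db 2.

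For 6 members, Ctsc, Ctsg, Ctsk, Ctss, Ctsw and Timp1, both db/db 1 and 2 exceeded each of the db/m mice while db/db 3 to 5 all lay below the db/m mean, which held for 12.2% of members and 1.5% of all genes. Some of these lay close to the mean or within the db/m range, as Ctsc did in db/db 3 and 5. The macrophage markers had the same order: 10 of 10 were above each of the db/m mice in db/db 1 and 8 of 10 in db/db 2. In the limma fit without db/db 1 and db/db 2, 7 of 10 macrophage markers fell, with a list median of -0.72, and 3 of 7 T and NK cell and 4 of 9 fibroblast markers fell. Other lists went the opposite way in that fit. There 9 of 11 distal tubule and collecting duct markers rose (list median 0.51), as did 6 of 7 podocyte markers (list median 0.56). The shares of all genes called in that fit are given below. The neutrophil markers did not pass in that fit, with a median of 0.29, and Elane and Mpo among them were dim, as was the macrophage marker Itgam. So were 4 of the 7 T and NK cell markers. Of the 5 mast cell markers Cpa3, Mcpt4 and Tpsb2 were dim, and its mean was 4.98 to 5.24 in db/m and 4.73 to 5.20 in db/db. The part of these cell types in the members' values was not tested.

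**Figure D4:**
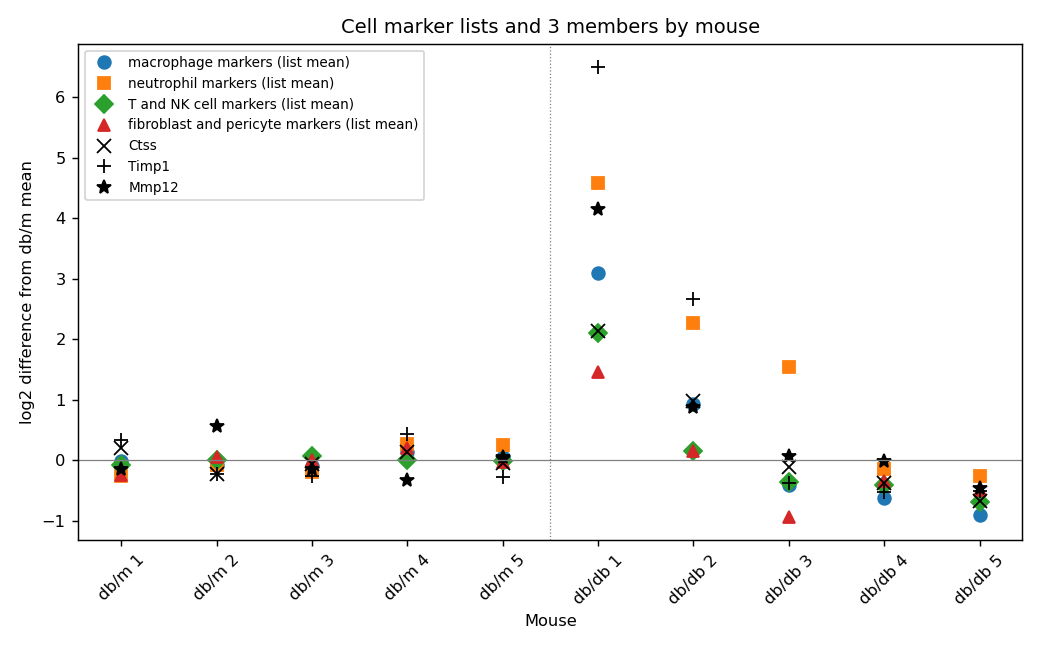
Difference from the db/m mean, in log2 units, of 4 cell marker lists (list means, coloured) and of Ctss, Timp1 and Mmp12 (black) in each mouse. The marker lists and the 3 genes are highest in db/db 1, and the macrophage list, Ctss and Timp1 lie below 0 in db/db 3 to 5.

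Without db/db 1 the fit called 2 members higher, Ctsf and Ctsz, against 6.84% of all genes, and 3 lower, Mmp11, Mmp13 and Timp3, against 5.93%. Together these are 10.2% of members and 12.8% of all genes. The groups then did not overlap for 8 members, or 16.3% against 15.4% of all genes (7.76% higher and 7.61% lower), with Mmp11 lower, Ctsf higher and Ctsh lower beside the 5 above. Without db/db 1 and db/db 2 it called 3 lower, Adamts1, Mmp11 and Mmp13, against 5.13% of all genes, and 0 higher, against 6.0%, by limma, where 16 members had an unadjusted p under 0.05, or 32.7% against 25.4% of all genes. In this fit 13 members, or 26.5%, did not overlap, against 19.9% of all genes (10% higher and 9.85% lower). Those added were Adamts1, Mmp3 and Timp1, which were lower, and Ctse and Adamts16, which were higher. Mmp13 was the member called in all 3 fits. The median change of the members was 0.04 and 0.00 in these fits, and -0.01 and 0.00 over all genes.

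**Figure D5:**
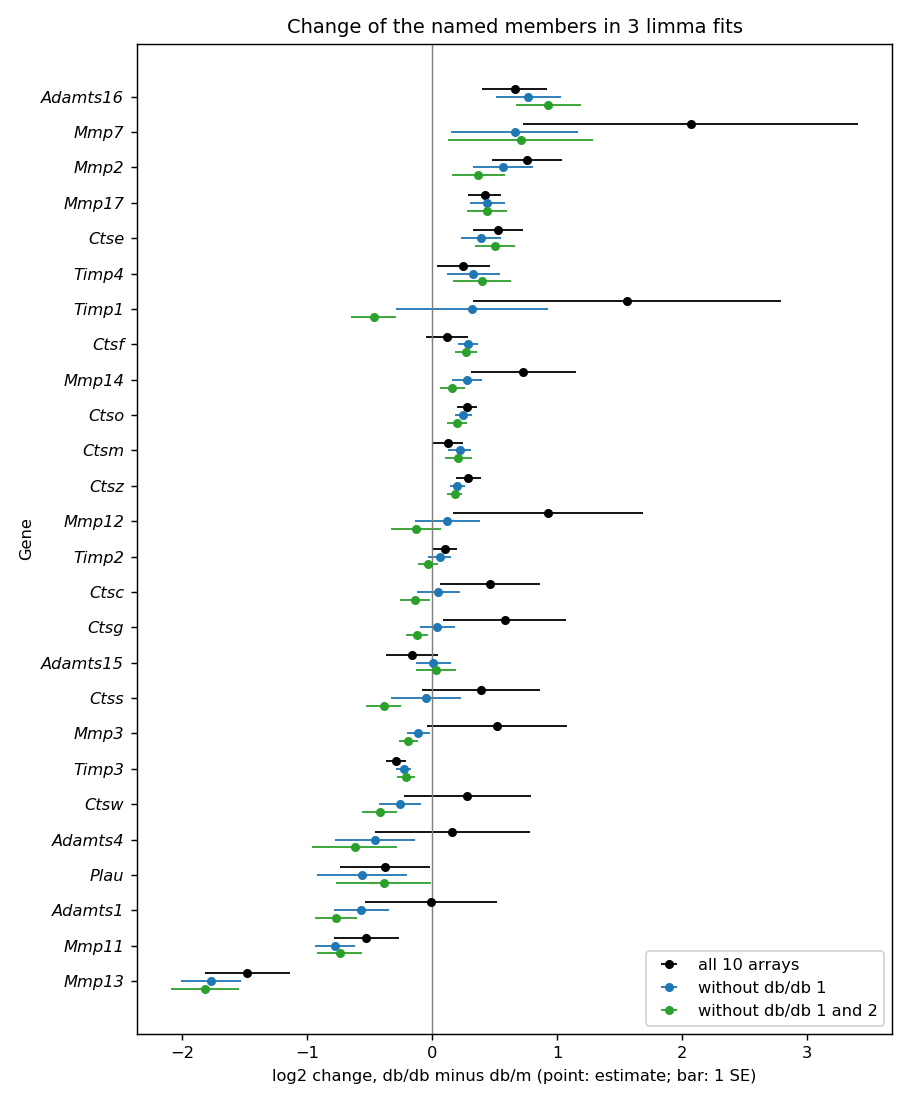
Log2 change, db/db minus db/m, with its SE for the 26 named members in the fit of all 10 arrays (black), without db/db 1 (blue) and without db/db 1 and 2 (green). Mmp13 and Mmp11 lie left of 0 in each fit, Ctss, Ctsw and Mmp3 lie right of 0 only with db/db 1 included, and Timp1 and Mmp12 only while db/db 1 or db/db 2 is included.

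Other genes of the same systems, from lists of 100 measured genes outside the members, are given next. Their counts stand beside 2.96% of all genes higher and 3.54% lower, and 1 call in a list of this size is near that share. In the plasminogen list 1 of 14 genes rose and 1 fell: Plat, the tissue plasminogen activator gene, went from 10.03 ± 0.14 to 10.58 ± 0.18 (SD, n = 5; 0.55 ± 0.10, limma adjusted p = 0.0139). Serpinf2, which encodes the plasmin inhibitor antiplasmin, fell from 12.96 ± 0.11 to 12.27 ± 0.30 (-0.69 ± 0.13, adjusted p = 0.0165). Both groups were apart in 5 of 5 mice for each gene, and both calls held without db/db 1 and without db/db 1 and 2, although that of Serpinf2 was lost without db/m 3 (adjusted p = 0.0503). The urokinase receptor gene Plaur, at 9.95 in db/db 1, did not pass (1.04 ± 0.47, adjusted p = 0.235). The list median was 0.28, against -0.03 over all genes, but 0.05 without db/db 1 and 0.01 without db/db 1 and 2.

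Of 18 cystatin, legumain and endolysosomal genes 1 rose. It was Lgmn, whose product legumain processes lysosomal cathepsins, at 12.43 to 12.58 in db/m and 12.59 to 13.05 in db/db (0.41 ± 0.09, limma adjusted p = 0.0294). The call was kept in 3 of the 10 fits that left out 1 mouse, where leaving out db/m 3 gave the highest adjusted p, 0.0844, and was lost without db/db 1 and 2 (adjusted p = 0.0594). The cystatin gene Cst3, at 13.32 to 13.55 in db/m, changed by 0.11 ± 0.07 (adjusted p = 0.434), and the list median was 0.06.

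Of 21 ADAM, astacin and other surface metallopeptidase genes 1 fell with all arrays. By limma 3 fell and 1 rose without db/db 1, against 5.93% and 6.84% of all genes. Without db/db 1 and 2, 4 fell and 0 rose, against 5.13% and 6.0%. Mep1b, a subunit gene of meprin in the proximal tubule brush border, was at 12.41, 11.57, 11.65, 12.50 and 11.91 in db/m and at 9.34, 10.57, 9.39, 9.39 and 11.22 in db/db mice 1 to 5. Each of the db/db mice lay below the db/m range, a 4.07-fold drop (-2.02 ± 0.39, limma adjusted p = 0.0146). The sheddase gene Adam8 was at 4.77 to 6.06 in db/m and 10.92 in db/db 1 (1.42 ± 0.95, adjusted p = 0.432).

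Among 12 other regulators of metalloproteases Thbs1, the thrombospondin gene, rose by 0.66 ± 0.12 (limma adjusted p = 0.0134), and the broad protease inhibitor gene Pzp fell 6.01-fold (-2.59 ± 0.41, adjusted p = 0.0071). Among 19 serine protease and serpin genes Serpinb1a, an inhibitor of neutrophil proteases, rose 2.36-fold (1.24 ± 0.19, adjusted p = 0.00529), and Serpinb6a rose by 0.83 ± 0.17 (adjusted p = 0.0177). Serpinh1, which encodes a collagen chaperone rather than a protease inhibitor, fell by 0.96 ± 0.18 (adjusted p = 0.0143). For these genes the groups were apart in 5 of 5 mice, and the calls held without db/db 1 and without db/db 1 and 2. That of Serpinb6a was lost without db/m 3 (adjusted p = 0.0501). Of the 19 serine protease and serpin genes limma called 6 higher and 1 lower without db/db 1, against 6.84% and 5.93% of all genes. Without db/db 1 and 2 it called 6 higher and 2 lower, against 6.0% and 5.13%. Of the 12 regulators it called 2 higher and 1 lower without db/db 1, and 3 higher and 1 lower without db/db 1 and 2.

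Of 16 matrix substrate genes 1, the laminin gene Lamc1, rose (0.63 ± 0.15, limma adjusted p = 0.0401). It too kept the call in 3 of the 10 fits that left out 1 mouse, where db/m 3 again gave the highest adjusted p, 0.104, and lost it without db/db 1 and 2 (adjusted p = 0.0786). The collagen gene Col1a1 was at 8.18 to 8.42 in db/m, whereas it was at 12.36, 9.49, 7.33, 7.97 and 7.88 in db/db mice 1 to 5. It stood, as Timp1 did, above the db/m range in db/db 1 and 2 and below it in db/db 3 to 5 (0.71 ± 0.81, adjusted p = 0.663). The fibronectin gene Fn1 was at 8.95 to 9.23 in db/m, 12.13 in db/db 1 and 10.13 in db/db 2. Over the 16 genes the list median was 0.30, but 0.06 without db/db 1 and -0.09 without db/db 1 and 2. In the limma fit without db/db 1 and 2, 1 of the 16 rose and 4 fell, against 6.0% and 5.13% of all genes.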

How the data were processed

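Per the submitters' processing notes, the authors summarised the arrays with RMA to log2 values, 1 per Entrez Gene ID. Its version and the regrouping of probes are not given in the sources used here. Levels were kept as deposited, and 64 control rows were left out. Array medians were 8.46 to 8.66. No 2 arrays were copies (the smallest of 45 largest pairwise differences was 3.07). Symbols came from the probe annotation (15780 of 16475 rows; 695 had none and were tested but not named). Arrays give no counts, so their number limits the precision.

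Groups were compared as db/db minus db/m with limma 3.58.1 in R 4.3.3 (lmFit and eBayes without trend, two-sided), with Benjamini-Hochberg adjustment over 16475 genes and a threshold of 0.05. The fit was checked on simulated arrays with normal noise, the same spread in both groups and no outlying array. That check does not cover an array that stands apart as db/db 1 did. Intervals are 95%. Dim genes are the lowest 25% by mean. The members and lists were chosen with earlier results of these data known. Genes were named by a rule: members past the threshold in any of 3 fits, members over 2 log2 units from the db/m mean in db/db 1 or 2, the lowest adjusted p in each class, and Timp1 to Timp4, Plau, Mmp2, Mmp7 and Mmp14. From each other list came up to 4 called genes. Mmp1a, Mmp1b, Mmp10, Mmp20, Mmp23, Ctsa, Ctsb, Ctsd, Ctsh, Ctsk, Ctsl, Plaur, Cst3, Adam8, Col1a1, Fn1 and members named only in a range were added after their values were seen. Figures used Python 3.11.15 and matplotlib 3.10.9.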

Additional observations from a re-analysis of the deposited data

Results flagged for a closer look

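Among the named genes 72 groups were examined, each holding the values of 1 gene in the 5 mice of db/m or db/db. A value was flagged where its gap to the nearest other took more than 0.71 of the group's range. This gave 13 such values, several of them from the same mouse. Chance gives about 1 in 20 groups, but many of these genes were named because they stood far out in db/db 1 or 2, so the number is not read against that rate. Of the 13 values, 8 were from db/db 1. In that mouse Mmp12 (10.44), Mmp14 (9.43), Mmp3 (8.37), Ctsg (7.25), Ctsz (13.52), Serpinb6a (12.19) and Serpinh1 (11.09) were far above the other db/db mice, and Ctsf (10.51) was far below them. Mmp7 and Timp1 in db/db 1 did not pass this limit: db/db 3 for Mmp7 (7.81) and db/db 2 for Timp1 (8.72) lay between it and the rest. Elsewhere Timp4 was high in db/db 5 (5.93) and in db/m 4 (5.03), Mmp17 in db/m 2 (7.16) and Ctsm in db/m 5 (3.84), and Serpinf2 was low in db/m 1 (12.77). The cause was not tested.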

How the results depend on the processing

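Leaving out dim genes gave 1 member higher (Ctso) and 1 lower (Timp3, as Mmp13 is dim), and array weights gave 5 higher and 3 lower. Repeated quantile normalisation and eBayes with trend and robust each gave 2 lower (Mmp13, Timp3), leaving out db/db 1 and 2 gave 3, and an adjusted p under 0.01 gave 0 by limma. Leaving out 1 mouse at a time gave 0 to 2 members higher and 0 to 3 lower, with the most without db/db 1. Over all 16475 genes, 1072 calls became 2641 with array weights, 1091 after repeated quantile normalisation and 1094 with trend and robust. They were 1213 among the genes kept when dim genes were left out, and 1834 without db/db 1 and 2. There were 575 with at least a 1.5-fold change and 279 at an adjusted p under 0.01. With 1 mouse left out they were 490 (without db/m 3) to 2104 (without db/db 1). So the calls over all genes moved too, and the member counts are not read as particular to the members.

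Other pathway genes, 6 higher and 4 lower, became 16 and 10 with array weights, 11 and 14 without db/db 1 and 2, and 3 to 14 higher and 3 to 9 lower with 1 mouse left out. With the replicate number as a block, calls were 393 over all genes, 1 member lower (Mmp13), and 1 higher and 2 lower in the other lists: Plat, Thbs1, Serpinb6a, Serpinh1, Mep1b, Lgmn and Lamc1 had adjusted p of 0.0523 to 0.131. Same-numbered mice did not deviate together (correlations across genes -0.09 to 0.01). Such correlations cannot show whether these mice were handled together, and the labels give only a number.

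Several log2 changes turned sign. With 1 mouse left out they ran from -0.57 to 0.24 for Adamts1, -0.24 to 0.01 for Adamts15, -0.46 to 0.50 for Adamts4, -0.05 to 0.65 for Ctss, -0.26 to 0.53 for Ctsw and -0.11 to 0.71 for Mmp3. With array weights Adamts15 was 0.06, Adamts4 -0.42, Ctss -0.08, Ctsw -0.28 and Mmp3 -0.04, and Adamts1 was 0 after quantile normalisation. Without db/db 1 and 2 they were 0.03 for Adamts15, -0.62 for Adamts4, -0.14 for Ctsc, -0.12 for Ctsg, -0.39 for Ctss, -0.42 for Ctsw, -0.13 for Mmp12, -0.19 for Mmp3, -0.47 for Timp1 and -0.03 for Timp2. The cause was not tested. Centring arrays moved the median of all genes from -0.03 to -0.10 and that of the members from 0.11 to 0.04, and ended the calls of Lgmn and Lamc1 (adjusted p = 0.0565 and 0.0538). Nothing in the labels says whether separate handling accompanied any mouse, and 19 of 49 members were dim.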
